A study of Homo sapiens with 4 samples.

Results

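H3K4bhb peaks that lay close to human centromeres or on sequences outside the assembled chromosomes were described in HK-2 cells, an established line of human renal tubular epithelium. H3K4bhb is histone H3 carrying a beta-hydroxybutyryl group on lysine 4. The members were taken from both deposited peak lists by position alone. A peak was pericentromeric when its summit lay within 5 Mb of the centromere midpoint of its chromosome, on chromosomes 1 to 22. It was on an other sequence when it lay outside chromosomes 1 to 22, X, Y and MT, that is on an unlocalized or unplaced scaffold, a patch or an alternate sequence. The members were 736 of the 17761 peaks of both lists, on build GRCh38. Of these, 512 of 11510 peaks came from cells given sodium beta-hydroxybutyrate before hydrogen peroxide (H2O2 + BHBNa), and 224 of 6251 from cells given hydrogen peroxide alone (H2O2).

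The series held 4 chromatin immunoprecipitation and sequencing libraries, with 1 immunoprecipitated (IP) library and 1 control library for each of the 2 treatments. The labels give no dose, time or untreated group. They contradict each other on the control, which the titles call IgG and the library names call Input. Each treatment had 1 peak list from 1 IP library, so no difference between treatments could be checked against replicates, and each one describes a pair of libraries.

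Centromeres are built on long arrays of alpha satellite repeats, and the chromatin around them is largely heterochromatin with few genes. Methylation of lysine 4 of histone H3 is associated with active promoters and enhancers, whereas constitutive heterochromatin carries methylated lysine 9. Lysine beta-hydroxybutyrylation is a histone mark that responds to the supply of beta-hydroxybutyrate, the main circulating ketone body. Satellite repeats are incompletely assembled in GRCh38, and reads from copies missing from the assembly can align to the copies it holds. Many unplaced scaffolds consist of such repeats.

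The deposited fold enrichment of a summit is the IP signal over the local background from the control library. The number of IP fragments at a summit and that background were recovered from the deposited fold and p. The genome-wide background, the lowest in a list and proportional to IP depth, was 0.102 fragments in the H2O2 + BHBNa list and 0.274 in the H2O2 list, a ratio of 2.68. The H2O2 + BHBNa list held peaks of 2 fragments, whereas the lowest in the H2O2 list was 3. Raw fragment numbers of the lists are therefore not on 1 scale, and scaled fragments below are fragments divided by the genome-wide background of their list. The fold adds 1 to fragments and to background, so at few fragments it also depends on depth.

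Members were a small share of each list but held many of its strongest peaks. They were 4.45% (95% Wilson interval 4.09 to 4.84) of the H2O2 + BHBNa list and 3.58% (3.15 to 4.07) of the H2O2 list. These intervals, like all others given here, cover counting error only. The 512 H2O2 + BHBNa members comprised 467 pericentromeric peaks and 45 on other sequences, and the 224 H2O2 members comprised 206 and 18 of the same kinds. At their summits they held 10.0% of the summit fragments of the H2O2 + BHBNa list and 19.1% of those of the H2O2 list. Among the 10 peaks with the lowest q, 9 were members in the H2O2 + BHBNa list and 9 in the H2O2 list, in each case 3 pericentromeric and 6 on other sequences. Among the 10 with the highest fold, 6 were members in each list.

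In the H2O2 + BHBNa list 116 of 512 members had a q of 0.05 or less (22.7%, 19.2 to 26.5), as did 15.2% of all peaks. In the H2O2 list 43 of 224 members had one (19.2%, 14.6 to 24.9), against 7.23% of all peaks. The share was highest on other sequences, at 27 of 45 (60%) in the H2O2 + BHBNa list and 10 of 18 (55.6%) in the H2O2 list. Pericentromeric peaks lay nearer to the remaining peaks, at 19.1% against 14.8% in the H2O2 + BHBNa list and 16.0% against 6.79% in the H2O2 list. At the stricter limit of a −log10 q of at least 5, members were 18 of the 70 peaks in the H2O2 + BHBNa list (0.608% of all peaks passed) and 11 of the 23 in the H2O2 list (0.368% passed).

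The typical member was a low peak. The median member fold was 2.97 in the H2O2 + BHBNa list, between a lowest of 2.43 and a highest of 14.8, and the remaining peaks had a median of 2.72. The median member fold in the H2O2 list was 3.60, between 2.14 and 11.9, with a median of 3.51 in the remaining peaks. Exactly 2 fragments supported 244 of 512 members (47.7%) in the H2O2 + BHBNa list, where 51.9% of all peaks had 2, and 0 members in the H2O2 list. At least 3 supported 268 of the H2O2 + BHBNa members (52.3%; 48.1% of all peaks) and 224 of the H2O2 members (100% of all peaks). Peaks of 500 bp or more were 43 of the H2O2 + BHBNa members (8.40%; 3.61% of all peaks) and 19 of the H2O2 members (8.48%; 3.58% of all peaks). The quartiles of fold were 2.68 and 3.62 in H2O2 + BHBNa members and 2.64 and 3.48 in the remaining peaks of that list, and 3.14 and 4.03 in H2O2 members and 3.11 and 3.89 in the remaining H2O2 peaks. Most members thus had folds in the range of the rest of their list.

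Peaks were sparser around centromeres than elsewhere in both lists. The 220 Mb of pericentromeric windows held 2.12 peaks per Mb (exact 95% Poisson interval 1.93 to 2.32) in the H2O2 + BHBNa list, against 3.88 over the rest of chromosomes 1 to 22. In the H2O2 list the windows held 0.936 per Mb (0.813 to 1.07), against 2.14. The density was lower in the window than on the rest of the chromosome for 20 of 22 chromosomes in each list. The exceptions in the H2O2 + BHBNa list were chromosome 4, with 4.80 per Mb in the window against 4.19 outside, and chromosome 20, with 4.30 against 4.23. In the H2O2 list they were chromosome 3, with 3.0 against 2.43, and chromosome 19, with 0.70 against 0.391. Among peaks with a q of at most 0.05, window density in H2O2 + BHBNa was 0.405 per Mb against 0.578 outside. In H2O2 it was 0.150 against 0.144, so that the lower density did not hold for these H2O2 peaks. The windows held 33 such H2O2 peaks, and no interval was taken for the densities at this limit. Window lengths were not corrected for unsequenced or unmappable bases, because no genome sequence was used here, so their part in the density was not tested.

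**Figure D1:**
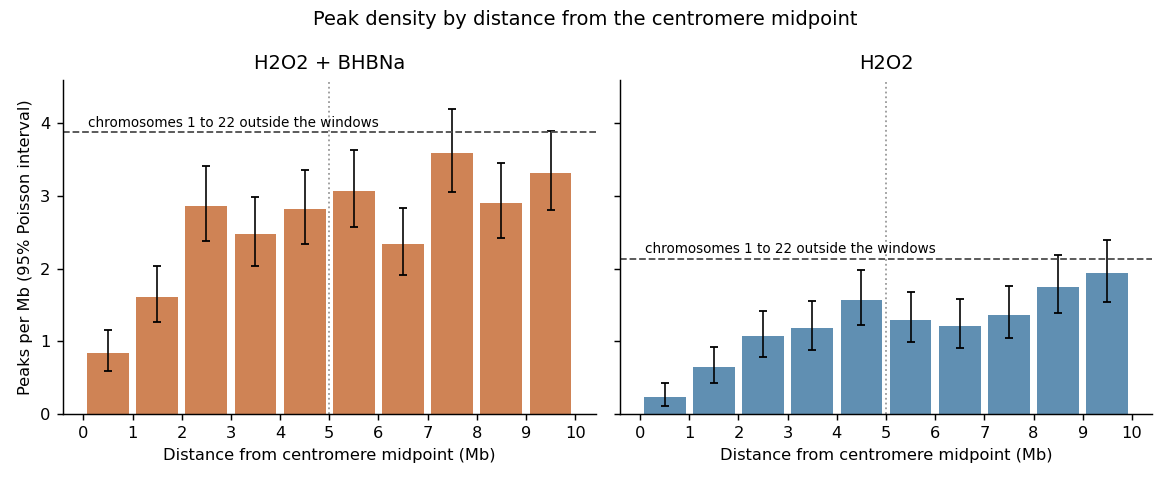
Peaks per Mb in 1 Mb bins of distance from the centromere midpoint, both sides and 22 chromosomes together, for the H2O2 + BHBNa list (left) and the H2O2 list (right); bars are counts over 44 Mb, whiskers exact 95% Poisson intervals, and the dashed line the density outside the windows. The innermost Mb is the lowest bin in both lists, at 0.841 peaks per Mb in H2O2 + BHBNa and 0.227 in H2O2.

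The density was lowest next to the midpoint and higher in the outer bins. The innermost Mb on either side held 37 peaks in the H2O2 + BHBNa list (0.841 per Mb) and 10 in the H2O2 list (0.227 per Mb). The bin from 4 to 5 Mb held 124 in the H2O2 + BHBNa list (2.82 per Mb) and 69 in the H2O2 list (1.57 per Mb). The centres of 9 protein-coding genes lay in the innermost bin, of 54 in the next and of 216 in the bin from 4 to 5 Mb.

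In H2O2 + BHBNa the few peaks next to the midpoints were more often of low q than those 2 to 5 Mb away, whereas H2O2 showed no steady order. In the H2O2 + BHBNa list 17 of the 37 innermost peaks (45.9%) reached a q of 0.05 and 4 overlapped a peak of the H2O2 list. Of the 124 peaks from 4 to 5 Mb in that list, 21 (16.9%) reached it and 1 overlapped. In the H2O2 list 3 of the 10 innermost peaks reached that q and 5 overlapped a peak of the H2O2 + BHBNa list, against 6 of 69 and 1 of 69 from 4 to 5 Mb. The share of H2O2 peaks at that q was 30% in the innermost bin, 6.38% from 2 to 3 Mb and 26.9% from 3 to 4 Mb. Of all peaks, 15.2% reached that q in H2O2 + BHBNa and 7.23% in H2O2. Overlap with the other list was 0.738% of all peaks in H2O2 + BHBNa and 1.36% in H2O2. The bin from 4 to 5 Mb was thus near the all-peak share at that q, with 16.9% in H2O2 + BHBNa and 8.70% in H2O2.

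Chromosomes differed widely. Chromosome 4 held 48 members in the H2O2 + BHBNa list and 27 in the H2O2 list, and chromosome 3 held 34 in H2O2 + BHBNa and 30 in H2O2. Chromosome 20 held 43 in H2O2 + BHBNa and 14 in H2O2, and chromosome 12 held 37 in H2O2 + BHBNa and 13 in H2O2. Chromosome 9 held 2 in each list and chromosome 15 held 0 in both. The order of chromosomes was therefore not the same in the lists, with chromosome 4 first in the H2O2 + BHBNa list and chromosome 3 first in the H2O2 list. On the acrocentric chromosome 13, all 16 members of the H2O2 + BHBNa list and all 4 of the H2O2 list lay on the long-arm side of the midpoint. On chromosome 14, also acrocentric, 13 of 14 did in H2O2 + BHBNa and 4 of 6 in H2O2. On chromosome 21 it was 12 of 19 in H2O2 + BHBNa and 10 of 11 in H2O2, and on chromosome 22 it was 6 of 7 in H2O2 + BHBNa and 2 of 4 in H2O2. How much of either side is sequenced and mappable was not measured here. These side counts and the 0 on chromosome 15 therefore do not show a placement of the mark.

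**Figure D2:**
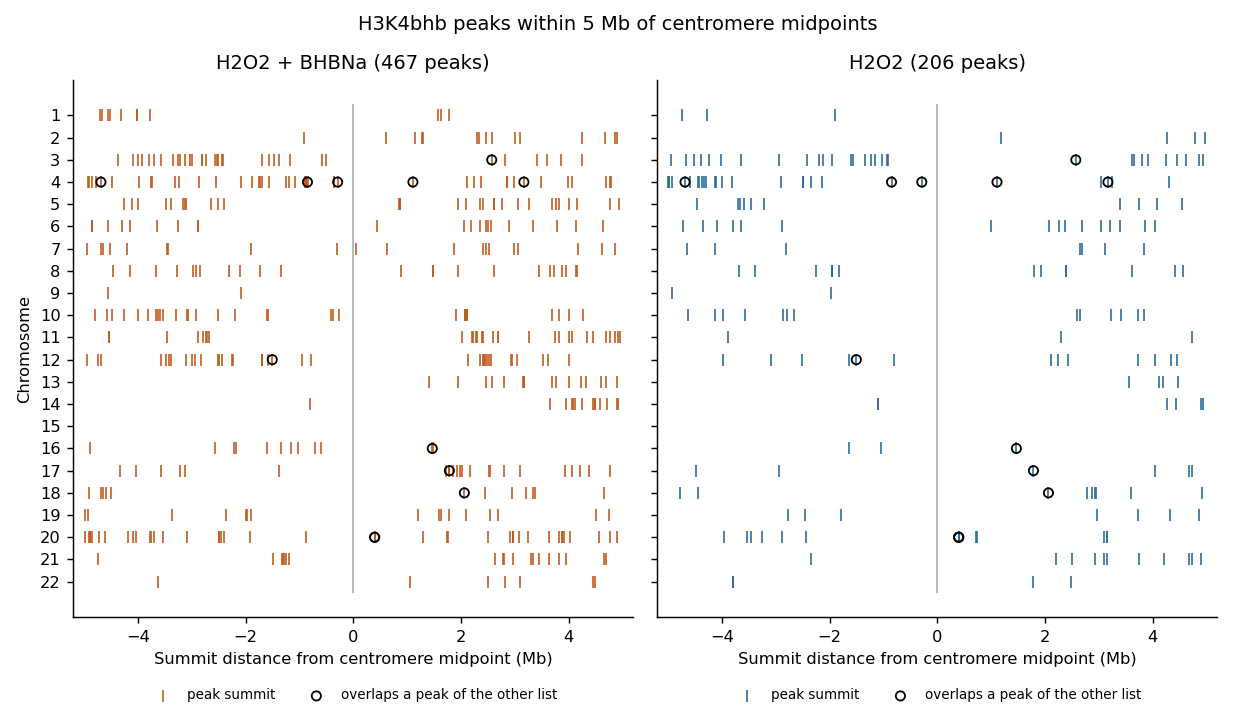
Summit positions of the 467 H2O2 + BHBNa (left) and 206 H2O2 (right) pericentromeric peaks by chromosome, as distance in Mb from the centromere midpoint; ticks are summits and open circles mark peaks that overlap a peak of the other list. Circles gather on chromosomes 4 and 20, and chromosome 15 is empty in both panels.

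The lists shared more of the members than of other peaks. In the H2O2 + BHBNa list 24 of 512 members (4.69%, 3.17 to 6.88) overlapped an H2O2 peak by at least 1 bp, where 0.738% of all peaks did. In the H2O2 list 24 of 224 members (10.7%, 7.31 to 15.4) overlapped an H2O2 + BHBNa peak, where 1.36% of all peaks did. Sharing was most frequent on other sequences, at 12 of 45 (26.7%) in the H2O2 + BHBNa list and 11 of 18 (61.1%) in the H2O2 list. Pericentromeric peaks were shared in 12 of 467 cases (2.57%) in the H2O2 + BHBNa list and 13 of 206 (6.31%) in the H2O2 list. The remaining peaks were shared in 0.555% of the H2O2 + BHBNa list and 1.01% of the H2O2 list. Members thus made up 28.2% of the 85 shared peaks of each list.

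**Figure D3:**
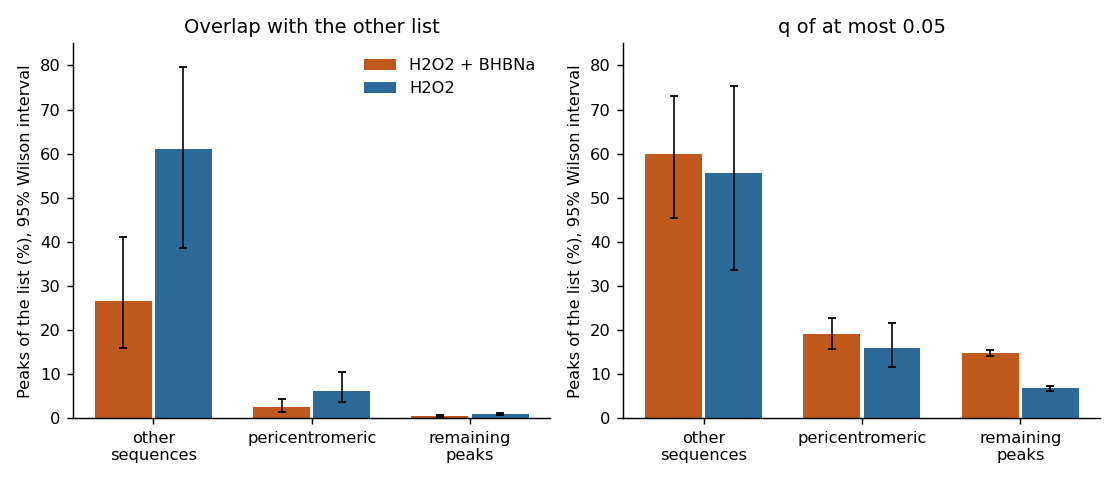
Share of peaks that overlap a peak of the other list (left) and that have a q of at most 0.05 (right), for other sequences, pericentromeric peaks and the remaining peaks, in the H2O2 + BHBNa list (orange) and the H2O2 list (blue); whiskers are 95% Wilson intervals. Other sequences stand highest in both panels, at 26.7% in H2O2 + BHBNa and 61.1% in H2O2 for overlap, and 60% in H2O2 + BHBNa and 55.6% in H2O2 for q.

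The shared members formed 25 overlapping pairs, since some peaks overlapped more than 1 peak of the other list. The q was at most 0.05 in both lists for 17 pairs. Summits lay a median of 61 bp apart, between 2 and 2144 bp, and 11 pairs had summits within 50 bp. The median fold was 5.42 in H2O2 + BHBNa and 4.13 in H2O2, with 15 pairs higher and 10 lower in H2O2 + BHBNa. The direction was thus mixed.

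The most prominent shared region was on chromosome 4, where 5 of the 13 pericentromeric pairs lay. The widest peak of each list was at chromosome 4, 49709092 to 49711916 in H2O2 + BHBNa and 49709089 to 49711946 in H2O2. This peak had a fold of 9.69 from 294 fragments in H2O2 + BHBNa and 9.22 from 879 fragments in H2O2. Scaled fragments were 2878 in H2O2 + BHBNa and 3205 in H2O2. Its −log10 q of 172.4 in H2O2 + BHBNa and 504 in H2O2 ranked first in each list. The outlines matched over 2825 bp, but the summits were 2144 bp apart. The local background was itself 29.4 fragments in H2O2 + BHBNa and 94.5 in H2O2. That was 288 times the genome-wide level in H2O2 + BHBNa and 345 times in H2O2. The nearest protein-coding gene was CWH43, whose yeast counterpart acts in lipid remodelling of membrane anchors, 647 kb from the H2O2 + BHBNa summit.

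The other strong chromosome 4 pair lay on the far side of the midpoint, at 51107219 to 51107556 in H2O2 + BHBNa and 51107152 to 51107564 in H2O2. It had a fold of 9.74 from 76 fragments in H2O2 + BHBNa and 9.04 from 191 fragments in H2O2, with summits 2 bp apart. Scaled fragments were 744 in H2O2 + BHBNa and 696 in H2O2. Its background was 67.6 times the genome-wide level in H2O2 + BHBNa and 73.8 times in H2O2. Both leading chromosome 4 pairs were close between the lists, in fold and in scaled fragments.

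Another chromosome 4 pair differed in fold. At 49149371 to 49149842 the fold was 8.33 from 10 fragments in H2O2 + BHBNa, and at 49149400 to 49149799 it was 4.43 from 8 fragments in H2O2. Scaled fragments were 97.9 in H2O2 + BHBNa and 29.2 in H2O2. The background there was 3.13 times the genome-wide level in H2O2 + BHBNa and 3.76 times in H2O2, far below that of the leading pairs. The last pairs on this chromosome were low, with folds of 3.03 in H2O2 + BHBNa and 3.79 in H2O2 at 45315480, and of 2.58 in H2O2 + BHBNa and 2.89 in H2O2 at 53167450. The peaks at 53167450 lay in SCFD2, which encodes a protein of the Sec1 family, and no other pericentromeric pair had its summit in a gene.

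Chromosome 20 carried the highest member fold of the H2O2 + BHBNa list. The peak at chromosome 20, 28494720 to 28495934, had a fold of 14.8 from 22 fragments in H2O2 + BHBNa. It covered 2 separate H2O2 peaks, at 28494831 to 28495070 with a fold of 4.13 from 5 fragments and at 28495401 to 28495739 with a fold of 4.99 from 10 fragments. Scaled fragments were 215 in H2O2 + BHBNa, against 18.2 and 36.5 at these H2O2 peaks. Its background was 5.43 times the genome-wide level in H2O2 + BHBNa, against 1.65 and 4.39 times at these H2O2 peaks. At a summit distance of 2.51 kb, the peak at 28497532 to 28498420 had a fold of 5.22 from 5 fragments in H2O2 + BHBNa, and its partner had 5.44 from 6 fragments in H2O2. Its scaled fragments were 48.9 in H2O2 + BHBNa and 21.9 in H2O2, so this pair was close in fold and apart on the scaled count. Equal raw fragments alone give a ratio of 2.68 on that count. At 5 and 6 fragments the gap is therefore not read as a difference between the lists. The nearest protein-coding gene was more than 2315 kb away.

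Chromosome 12 held the pair whose fold was higher in H2O2 by the widest margin, while its scaled fragments were close. The peak at 33995892 to 33996202 had a fold of 5.22 from 5 fragments in H2O2 + BHBNa, and at 33995883 to 33996235 the fold was 11.9 from 15 fragments in H2O2. Scaled fragments were 48.9 in H2O2 + BHBNa and 54.7 in H2O2. The 11.9 was the highest fold of the whole H2O2 list. The background was near the genome-wide level in both, at 1.46 times in H2O2 + BHBNa and 1.25 times in H2O2. The nearest protein-coding gene was ALG10, a glucosyltransferase of N-glycan assembly, 26.3 kb from the H2O2 + BHBNa summit.

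The remaining pericentromeric pairs lay on chromosomes 16, 17, 18 and 3. On chromosome 16 at 38266627 the fold was 5.32 in H2O2 + BHBNa and 4.71 in H2O2, each from 5 fragments, which are 48.9 scaled fragments in H2O2 + BHBNa and 18.2 in H2O2. On chromosome 17 at 26883998 it was 4.25 from 8 fragments in H2O2 + BHBNa and 3.63 from 17 in H2O2. On chromosome 18 at 20562307 it was 6.21 from 6 fragments in H2O2 + BHBNa and 3.55 from 5 in H2O2. The chromosome 18 peak reached a q of 0.05 in H2O2 + BHBNa and did not in H2O2. On chromosome 3 at 93470399 the fold was 2.49 from 33 fragments in H2O2 + BHBNa and 2.92 from 110 in H2O2. Its background was 124 times the genome-wide level in H2O2 + BHBNa and 135 times in H2O2.

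**Figure D4:**
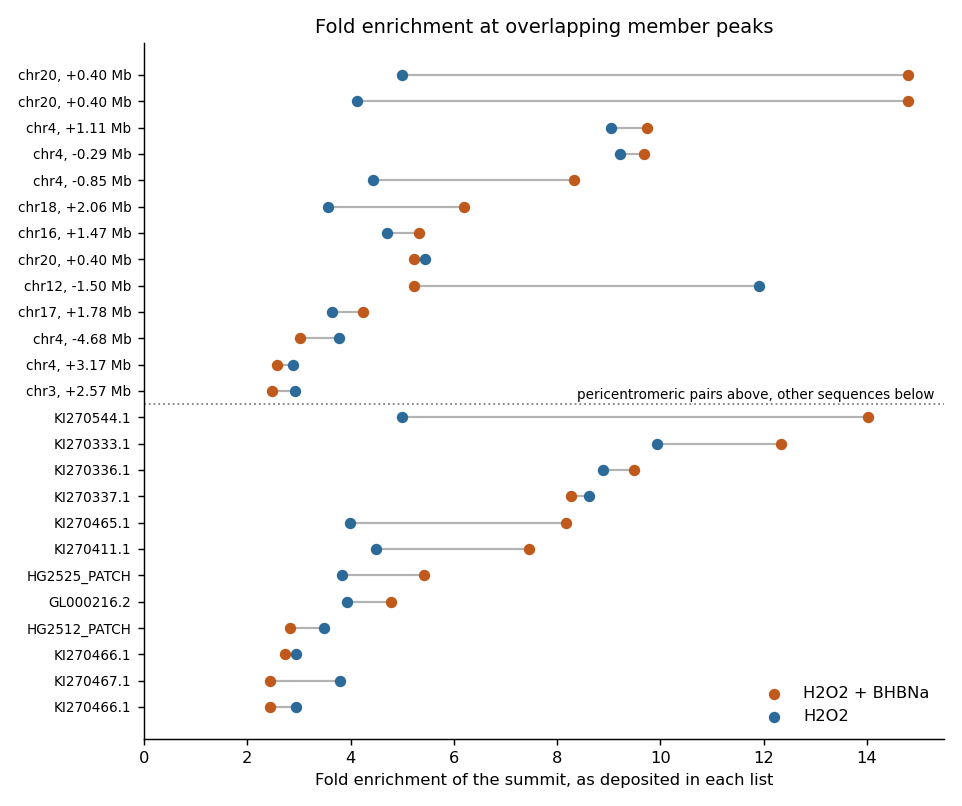
Deposited fold enrichment at the 25 overlapping member pairs in the H2O2 + BHBNa list (orange) and the H2O2 list (blue), pericentromeric pairs above the dotted line, labelled by chromosome and distance from the midpoint, and other sequences below. The widest gaps are on chromosome 20 and KI270544.1, where H2O2 + BHBNa is higher, and on chromosome 12, where H2O2 is higher.

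Peaks outside the assembled chromosomes fell on 25 sequences in the H2O2 + BHBNa list and 17 in the H2O2 list. Both lists had a peak on 12 of them, while 13 had one in H2O2 + BHBNa alone and 5 in H2O2 alone. Scaffolds named GL or KI held 36 of the 45 peaks in H2O2 + BHBNa and 12 of the 18 in H2O2. The files do not name genes or repeat types on these scaffolds.

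Among the shared scaffolds, 3 combined high fragment numbers with high folds in both lists. KI270333.1 had a peak of 2617 bp with a fold of 12.3 from 133 fragments in H2O2 + BHBNa, and one of 2620 bp with 9.93 from 376 fragments in H2O2. KI270336.1 had a fold of 9.48 from 94 fragments in H2O2 + BHBNa and 8.90 from 291 in H2O2. KI270337.1 had 8.27 from 278 fragments in H2O2 + BHBNa and 8.61 from 814 in H2O2. Scaled fragments were 1302 in H2O2 + BHBNa and 1371 in H2O2 on KI270333.1, 920 in H2O2 + BHBNa and 1061 in H2O2 on KI270336.1, and 2721 in H2O2 + BHBNa and 2968 in H2O2 on KI270337.1. The fold was higher in H2O2 + BHBNa on KI270333.1 and KI270336.1 and lower on KI270337.1, and the background on the 3 was 88.3 to 320 times the genome-wide level in H2O2 + BHBNa and 116 to 341 times in H2O2.

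On a further set of sequences the fold was higher in H2O2 + BHBNa, mostly from few fragments. KI270544.1 had a fold of 14.0 from 16 fragments in H2O2 + BHBNa and 4.99 from 8 in H2O2. KI270465.1 had 8.17 from 8 fragments in H2O2 + BHBNa and 3.99 from 5 in H2O2. KI270411.1 had 7.45 from 26 fragments in H2O2 + BHBNa and 4.48 from 40 in H2O2. The patch HG2525_PATCH, with 5.42 in H2O2 + BHBNa and 3.83 in H2O2, and GL000216.2, with 4.78 in H2O2 + BHBNa and 3.94 in H2O2, were also higher in H2O2 + BHBNa. Scaled fragments on KI270544.1 were 157 in H2O2 + BHBNa and 29.2 in H2O2. Except on KI270411.1, these peaks rested on at most 16 fragments in either list.

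A last group combined a very high background with low folds. KI270467.1 had 372 fragments and a fold of 2.44 in H2O2 + BHBNa, and 1517 fragments and a fold of 3.80 in H2O2. Its local background was 1485 times the genome-wide level in H2O2 + BHBNa and 1454 times in H2O2. KI270466.1 had folds of 2.72 and 2.43 at 2 peaks in H2O2 + BHBNa, both under 1 H2O2 peak with a fold of 2.94. HG2512_PATCH had 2.82 from 192 fragments in H2O2 + BHBNa and 3.49 from 666 in H2O2. The background at HG2512_PATCH was 660 times the genome-wide level in H2O2 + BHBNa and 693 times in H2O2. All 3 sequences had a lower fold in H2O2 + BHBNa.

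Sequences with peaks in a single list mostly had few fragments. GL000225.1 held 6 peaks in H2O2 + BHBNa, with a highest fold of 5.06 from 6 fragments, and 0 in H2O2. KI270438.1 held 4 in H2O2 + BHBNa, of which 0 reached a q of 0.05, and 0 in H2O2. In H2O2 alone, KI270746.1 had a fold of 4.71 from 5 fragments and HG2062_PATCH had one of 2.14 from 73 fragments. The background at HG2062_PATCH was 123 times the genome-wide level.

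High local background was concentrated in the members. A background over 10 times the genome-wide level occurred at 30 peaks of the H2O2 + BHBNa list (0.261% of all peaks), of which 25 (83.3%) were members. In the H2O2 list it occurred at 24 peaks (0.384%), of which 16 (66.7%) were members. The 25 members comprised 14 pericentromeric and 11 other-sequence peaks, and the 16 comprised 8 of each. Overlap with the other list was found for 12 of the 25 in H2O2 + BHBNa and 11 of the 16 in H2O2. Of all peaks, 0.738% overlapped in H2O2 + BHBNa and 1.36% in H2O2. Without all peaks over 10 times the genome-wide level the shared members were 12 of 487 (2.46%) in H2O2 + BHBNa and 13 of 208 (6.25%) in H2O2. The share over all peaks without such peaks was not computed. Overlap of the high-background peaks that are no members was not computed either. The part of background in the sharing was not otherwise tested.

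**Figure D5:**
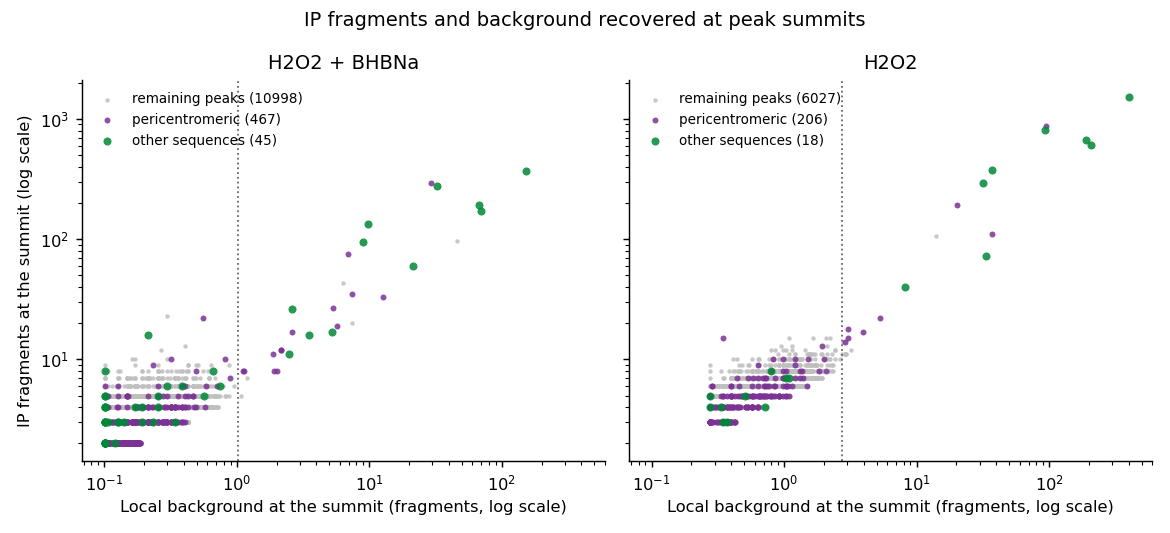
IP fragments at the summit against the local background, both on log scales, for remaining peaks (grey), pericentromeric peaks (purple) and other-sequence peaks (green) in the H2O2 + BHBNa list (left) and the H2O2 list (right); the dotted line marks 10 times the genome-wide background. Members make up 25 of the 30 peaks right of the line in H2O2 + BHBNa and 16 of the 24 in H2O2.

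Pairs of high background are given apart from the others. In 12 pairs the background was over 10 times the genome-wide level in both lists. At these the fragments, each relative to its list's genome-wide background, had a median ratio of 0.883 for H2O2 + BHBNa over H2O2, between 0.264 and 1.74. Their local backgrounds had a median ratio of 0.882 on the same scale, and the fold was higher in H2O2 + BHBNa in 6 of 12 pairs. In the other 13 pairs the median ratio was 3.07 for fragments and 1.16 for background, and the fold was higher in H2O2 + BHBNa in 9. The ratio of the 13 pairs is not comparable with that of the 12. A peak of the least fragments is 19.6 on the scaled count in H2O2 + BHBNa and 10.9 in H2O2, and equal raw fragments alone give a ratio of 2.68, so at few fragments the scale itself puts H2O2 + BHBNa higher.

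High-fold members without a partner were on chromosomes 5, 7 and 10 in H2O2 + BHBNa. Of the 8 highest pericentromeric folds, 3 had no partner, where 0.738% of all peaks of that list had one. The highest without a partner was at chromosome 5, 52962567 to 52962841, with a fold of 8.10 from 9 fragments. Next was chromosome 7, 60732517 to 60732877, with a fold of 6.35 from 6 fragments. The peak at chromosome 10, 41883208 to 41883744, followed with 6.08 from 10 fragments. More fragments, 35, supported the unshared H2O2 + BHBNa peak at chromosome 16, 34588137 to 34588575, which had a fold of 4.28 and a −log10 q of 7.93 over a background 72.6 times the genome-wide level. The chromosome 5 peak lay in the long noncoding RNA gene ITGA2-AS1, 3.55 kb from ITGA1, which encodes a collagen-binding integrin subunit.

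In H2O2, 5 of the 8 highest pericentromeric folds had no partner, where 1.36% of all peaks of that list had one. The highest without a partner was at chromosome 11, 49512068 to 49512340, with a fold of 6.13 from 9 fragments. Next was chromosome 21, 15747386 to 15747681, with 6.03 from 10 fragments. The chromosome 21 peak lay in USP25, a ubiquitin-specific protease gene. Peaks at chromosome 4, 46188011, with 5.57, at chromosome 18, 21434494, with 5.56, and at chromosome 14, 22098235, with 5.44, were the next highest. The chromosome 18 peak lay in GREB1L, a gene known for its role in kidney development, and the chromosome 14 peak in the T cell receptor alpha locus.

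Some members lay in small clusters. Another summit lay within 10 kb of 56 of the 467 pericentromeric peaks (12.0%) in H2O2 + BHBNa, where 9.79% of all peaks on chromosomes 1 to 22 had one, and of 18 of 206 (8.74%) in H2O2, where 6.84% had one. The largest H2O2 + BHBNa clusters, 3 in number, had 4 peaks each. One covered chromosome 17, 26881039 to 26885848, where all 4 reached a q of 0.05 with folds of 4.17 to 5.06. Another covered chromosome 5, 49657540 to 49661797, where all 4 did, with 2.96 to 4.42. On chromosome 4, 49635168 to 49652077, 2 of 4 did, with 3.13 to 4.23, and 0 were shared. The largest H2O2 clusters had 3 peaks, on chromosome 20 at 28494831 to 28497958, where all 3 overlapped H2O2 + BHBNa peaks, and on chromosome 8 at 43237707 to 43242180, where 0 did.

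Peaks at the edge of the windows had similar folds on both sides. The 5 H2O2 + BHBNa members nearest inside the limit lay 4.93 to 4.99 Mb from the midpoint with folds of 2.59 to 3.45, and the 5 peaks nearest outside lay at 5.01 to 5.02 Mb with 2.56 to 3.57. In H2O2 the 5 inside lay at 4.94 to 4.99 Mb with folds of 2.90 to 4.54, and the 5 outside at 5.02 to 5.09 Mb with 2.77 to 4.91. Of these 20 peaks, 0 were shared, where 0.738% of all peaks were in H2O2 + BHBNa and 1.36% in H2O2. A count of 0 is therefore not particular to the edge.

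Pericentromeric summits lay mostly between genes. They were intergenic for 298 of 467 peaks (63.8%, 59.4 to 68.0) in H2O2 + BHBNa, where 43.2% of all peaks on chromosomes 1 to 22 were, and for 122 of 206 (59.2%, 52.4 to 65.7) in H2O2, where 45.8% were. A summit lay in a protein-coding gene for 126 (27.0%) in H2O2 + BHBNa, against 42.5% of all, and for 64 (31.1%) in H2O2, against 38.2% of all. Exons, introns and UTRs were not resolved, since the gene table gives gene ends only. Of 1372 RefSeq promoter windows of 300 bp in these regions, 0 overlapped a member of either list, and of 47 miRNA hairpins, 0 did. Over chromosomes 1 to 22, all peaks of the list overlapped 0.116% of 33725 such promoter windows in H2O2 + BHBNa and 0.0356% in H2O2, and 0 of 1461 hairpins in both, so a count of 0 is not particular to the members.

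Member summits lay in 141 genes in H2O2 + BHBNa, 99 of them protein-coding, and in 78 in H2O2, 52 of them protein-coding. Of the 734 protein-coding genes wholly inside the windows, 96 held a summit in H2O2 + BHBNa, where 15.1% of all protein-coding genes did. In H2O2 49 held one, where 7.88% of all did. The members' shares were 13.1% in H2O2 + BHBNa and 6.68% in H2O2, close to the genome-wide ones. Both lists had a summit in 29 genes, and the peaks overlapped in 1 of them, SCFD2. Of all peaks, 0.738% overlapped the other list in H2O2 + BHBNa and 1.36% in H2O2. Genes with a summit in both lists were not counted genome-wide, so these counts cannot be set against genes in general.

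The genes with the highest folds differed between the lists. In H2O2 + BHBNa they were ITGA2-AS1 at 8.10, HCRTR2, an orexin receptor gene, at 6.04, LOC645485 at 5.57 and the pseudogene RN7SL314P at 5.42. HMGCLL1, which encodes an enzyme that cleaves hydroxymethylglutaryl-CoA in ketone body formation, had a fold of 4.78 in H2O2 + BHBNa and 3.88 in H2O2, at peaks with summits 65.5 kb apart. Its H2O2 + BHBNa peak rested on 5 fragments with a q of 0.00658, and its H2O2 peak on 8 fragments with a q of 0.179. KHDRBS2, an RNA-binding protein gene, held 4 peaks up to 4.62 in H2O2 + BHBNa and 3 up to 4.45 in H2O2, the nearest 13.9 kb apart. CABLES1 and C20orf203 followed with 4.54 each in H2O2 + BHBNa and had no member summit in H2O2.

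In H2O2 the leading genes were USP25 at 6.03, GREB1L and its antisense gene GREB1L-AS1 at 5.56, the T cell receptor alpha locus at 5.44 and LOC105375825 at 5.05. In H2O2 + BHBNa, USP25 held a peak of 2.62 from 2 fragments and GREB1L one of 2.70 from 2 fragments, elsewhere in the gene. The T cell receptor alpha locus held 7 peaks up to 3.30 in H2O2 + BHBNa and 3 in H2O2, the nearest summits 2.10 kb apart. The ankyrin gene ANK1 and the solute carrier gene SLC35D4 had 4.71 each in H2O2 and MIR99AHG 4.74, with no member summit in H2O2 + BHBNa. Peaks in a gene and its antisense partner cannot be told apart, since the lists carry no strand.

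Most genes with a summit in both lists were long genes at low fold. EPHA3, an ephrin receptor gene, held 3 peaks up to 3.44 in H2O2 + BHBNa and 2 up to 3.18 in H2O2, the nearest summits 1.21 kb apart. DST, which encodes the cytoskeletal linker dystonin, held 3 up to 3.73 in H2O2 + BHBNa and 1 of 4.06 in H2O2. WARS2, the mitochondrial tryptophanyl-tRNA synthetase, had 4.25 from 4 fragments in H2O2 + BHBNa and 2.86 from 3 in H2O2. None of these 3 genes reached a q of 0.05 in H2O2, and WARS2 alone of them did in H2O2 + BHBNa.

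Families were counted among the same window genes, of which 13.1% held a summit in H2O2 + BHBNa and 6.68% in H2O2. At these shares a family of 2 or 9 genes can hold 0 by its size, and no family was tested against them. POTE genes, primate-specific ankyrin-repeat genes, held a summit in 0 of 9 in both lists, and TPTE, GGT and NBPF genes in 0 of 2 each in both lists. ANKRD genes held one in 0 of 9 in H2O2 + BHBNa and 1 of 9 in H2O2, ANKRD30A at 3.14. Zinc finger genes named ZNF held one in 7 of 55 in H2O2 + BHBNa and 3 of 55 in H2O2, with ZNF487 and ZNF536 in both. The highest of these was ZNF713 at 4.24 in H2O2 + BHBNa. Olfactory receptor genes held one in 1 of 88 in H2O2 + BHBNa, OR9Q1 at 4.19. In H2O2 they held one in 2 of 88, OR9Q1 and OR9I1 at 3.44 each, where 1 peak lies in both annotated genes. Gene length was not taken into account for any family, and OR9Q1 spans 158 kb. Solute carrier genes held one in 1 of 11 in H2O2 + BHBNa, SLC43A3 at 2.58, and in 2 of 11 in H2O2, SLC2A13 at 4.03 and SLC35D4. Duplicated genes share sequence, and the sources used here do not say how reads that align to several copies were treated.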

How the data were processed

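H3K4bhb ChIP-seq peak lists of HK-2 cells were used, 1 per treatment. Per the labels' protocols, chromatin was fixed, sonicated to 100 to 500 bp and read as 150 bp pairs. GRCh38 was the build and MACS2 2.2.7.1, Bowtie2 2.4.2, fastp 0.20.1, DiffBind, HOMER and ChIPseeker were among the tools, per the submitters' processing notes. The sources used here give neither their roles nor their settings. The files under the IP and the control library of a treatment held the same peaks, with starts 1 bp apart, so each treatment gave 1 list. Each row, as deposited, gives a summit, a fold enrichment (a ratio), a score and the −log10 of the q-value and p-value. The lowest deposited −log10 p was 3.00 in both lists.

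Members and lists were chosen with earlier results of these data known. IP fragments and background were recovered from fold, as (fragments + 1) over (background + 1), and p, as a Poisson chance of more fragments. On the −log10 scale 100% of peaks were recovered to within 0.001. Read totals were not used here, so depth is known only through the background. No test was made, since each treatment had 1 IP library. Shares have 95% Wilson and densities exact Poisson intervals. Overlap of 1 bp was counted with bedtools 2.31.1. Gene positions were those of RefSeq on GRCh38.p14, whose last gene ends stood in for chromosome lengths. Scripts used scipy 1.17.1, pandas 2.3.3, numpy 2.4.6 and matplotlib 3.10.9 under Python 3.11.15 and were tested on simulated data. Peaks named are the pairs, the 8 highest-fold members on chromosomes 1 to 22 and 6 on other sequences of each list, and 5 on each side of the 5 Mb limit. Genes named hold the 8 highest summits of a list, a summit in both lists, or belong to families fixed by symbol. The other pairs, clusters and sequences with peaks in 1 list were named after their values were seen. Sequence and motifs at the peaks were not analysed here, and a peak list cannot check the cell line by marker genes.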

Additional observations from a re-analysis of the deposited data

How the results depend on the processing

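Few fragments per peak limit every count, and mappability and repeat annotation were not used here. A limit of 0.05 on q left 116 members in H2O2 + BHBNa and 43 in H2O2, overlap was 14.7% in H2O2 + BHBNa and 37.2% in H2O2, and window density per Mb was 0.405 in H2O2 + BHBNa and 0.150 in H2O2. The density outside the windows was then 0.578 in H2O2 + BHBNa and 0.144 in H2O2. The lower window density was thus not seen in H2O2, where the windows held 33 such peaks. No interval was taken for these densities, and the cause was not tested. With at least 3 fragments H2O2 + BHBNa had 268 members, 8.58% overlapping, 43.3% at that q and 1.05 per Mb. Outside the windows H2O2 + BHBNa then had 1.87 per Mb. At that limit H2O2 was unchanged apart from an overlap of 10.3%. Windows of 2 Mb gave 153 members in H2O2 + BHBNa and 56 in H2O2. Overlap was 13.1% in H2O2 + BHBNa and 35.7% in H2O2. The shares at that q were 42.5% in H2O2 + BHBNa and 35.7% in H2O2. Density was 1.23 per Mb against 3.82 outside in H2O2 + BHBNa, and 0.432 against 2.10 in H2O2. Windows of 10 Mb gave 1182 members in H2O2 + BHBNa and 556 in H2O2. Overlap was then 2.28% in H2O2 + BHBNa and 4.86% in H2O2. The shares at that q were 17.4% in H2O2 + BHBNa and 12.4% in H2O2. Density was 2.58 per Mb against 3.95 outside in H2O2 + BHBNa, and 1.22 against 2.19 in H2O2. Pericentromeric windows alone gave overlap of 2.57% in H2O2 + BHBNa and 6.31% in H2O2, and 19.1% at that q in H2O2 + BHBNa. Other sequences alone gave 45 members in H2O2 + BHBNa and 18 in H2O2, overlap of 26.7% in H2O2 + BHBNa and 61.1% in H2O2, and 60% at that q in H2O2 + BHBNa and 55.6% in H2O2. A −log10 q of 5 or more left 18 members in H2O2 + BHBNa and 11 in H2O2, overlap of 55.6% in H2O2 + BHBNa and 81.8% in H2O2, and by construction 100% at the lower limit. Leaving out peaks over 10 times the genome-wide background, chosen after seeing the data, gave overlap of 2.46% in H2O2 + BHBNa and 6.25% in H2O2. It gave 13.0% at that q in H2O2. Where peaks were filtered by q, fragments or background, overlap and q shares of all peaks under the filter were not computed. The all-peak shares given earlier do not apply to those settings. In all, 22 other values were classed as close to the main ones, though some of them fell. Overlap of 50% of each peak left 17 shared members per list, 3.32% in H2O2 + BHBNa and 7.59% in H2O2. Summits within 200 bp left 18 per list, 3.52% in H2O2 + BHBNa and 8.04% in H2O2. The 22 also held the values for peaks within 1 kb, chromosome 4 left out, and peaks within 10 kb merged. The cause of the other moves was not tested. No window density applies to other sequences alone, and base composition and motifs were not run. No paired analysis was possible because each treatment held 1 IP library, and for the same reason no replicate could be left out.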
